A study of Homo sapiens with 14 samples.

Results

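The arrays described here ask what lowering ANGPTL4 did to gene expression in gastric carcinoma cells that were being driven into epithelial-mesenchymal transition (EMT) by Snai1. They are 4 of the 14 arrays of the series, chosen by their labels alone: the Snai1ER line with ANGPTL4 knockdown after 2 and 4 days of 4-hydroxytamoxifen (4-OHT, 20 ng/mL), and the same line without knockdown on the same days. Each knockdown array was set against the array of its own day. All 4 arrays derive from 1 line grown in RPMI with serum, which the sample labels call MKN28snai1ER and the paper MKN74_Snai1ER, and all 4 received 4-OHT. The knockdown arrays carry, per the labels' protocol, an shRNA against ANGPTL4 in the Snai1ER line, and the paper describes that transgene as inducible with doxycycline. The labels do not say whether doxycycline was given. Untreated Snai1ER cells on day 4 gave a further array, without knockdown, which serves below as a reference level. No untreated array of day 2 exists, so a day 2 difference from it cannot be told apart from time in culture. The 8 arrays with and without knockdown in the parental line, under hypoxia (1% oxygen) or TGFβ1 (10 ng/mL) for 1 and 2 days, serve only for comparison. There was 1 array per condition, so no single day can be tested, and a difference between the line with the shRNA and the line without it cannot be told apart from the loss of ANGPTL4 itself.

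Snai1 is a zinc finger repressor that shuts down E-cadherin and other epithelial genes. Fused to the hormone-binding domain of the oestrogen receptor (Snai1ER), it stays inactive in the cell until 4-OHT binds and releases it to the nucleus. ANGPTL4 is a secreted protein of the angiopoietin-like family. Its amino-terminal part inhibits lipoprotein lipase, and its carboxy-terminal part binds integrins and matrix proteins and has been tied to tumour cell survival and redox signalling.

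The labels were first set against the data. SNAI1, the gene of the transgene, read a log2 level of 9.62 and 9.55 without knockdown on days 2 and 4, and 9.85 and 8.80 with it. The day 4 knockdown array thus had the lowest SNAI1 level of the 4, -0.75 against its partner. ANGPTL4 itself read 5.43 and 5.05 without and 5.35 and 5.28 with knockdown. Its mean over all 14 arrays lay below the level of 5.90 that a gene had to reach to be tested, so this probe set does not check the knockdown. The 8 epithelial markers averaged 9.90 and 10.02 without and 9.84 and 9.45 with knockdown, and all 8 were above the filter. On day 4, KRT8, KRT18, KRT19, CLDN4 and ELF3 were at least 1.5-fold lower with knockdown, while EPCAM went from 11.56 to 12.01 and CDH1 from 10.84 to 10.94, and the part of this in other day 4 differences was not tested. Of 14 gastric and intestinal markers on the array only 5 were above it, and TFF2, GKN1, GKN2 and CLDN18 were not. For fibroblasts, leukocytes and endothelium, 1 marker each was above the filter (COL1A1, NKG7 and CLDN5), of 9, 9 and 7, and the marker means of the 3 lists lay between 4.71 and 5.16 on the 4 arrays. Probe set medians ran from 5.997 to 6.12. Across the 11050 genes tested, the 2 day 4 arrays correlated least (Pearson r = 0.887), the day 2 arrays at 0.942, and the arrays without knockdown at 0.955 between days, a description of genes that are not independent. Against the untreated Snai1ER array the log2 difference had an SD over genes of 0.30 and 0.55 without knockdown on days 2 and 4, and 0.48 and 0.49 with it. The array without knockdown on day 4 therefore stood farthest from the untreated cells, and a day 4 difference can come from either array of the pair.

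With ANGPTL4 knockdown, more genes were lower than higher. Of the 11050 genes, 748 (6.77%) were at least 1.5-fold lower on both days, 263 (2.38%) at least 1.5-fold higher on both days, and 119 (1.08%) passed 1.5-fold in opposite directions. This rule is one of size, with no test. Day 2 alone gave 1569 lower (14.2%) and 685 higher (6.2%), and day 4 alone 2051 lower (18.6%) and 1716 higher (15.5%). Lower genes made up 74% of the genes called on both days, and 84.2% (951 lower, 179 higher) after each array was centred on its median, a scaling that moved the median day 4 difference of all genes from -0.04 to -0.15. At 2-fold, 205 genes were lower and 48 higher. Requiring both knockdown arrays to lie 1.5-fold beyond both arrays without knockdown, whichever the day, kept 550 of the 748 lower genes (4.98% of those tested) and 146 of the 263 higher genes (1.32%). The nearest genes inside the rule were DDT (-0.59 and -0.79) and MRPL48 (-0.59 and -0.77), and the nearest outside it SLIRP (-1.26 and -0.58) and ABHD2 (0.58 and 0.75). Because RNA was taken from whole cultures, fewer cells expressing a gene and less RNA per cell cannot be told apart.

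**Figure D1:**
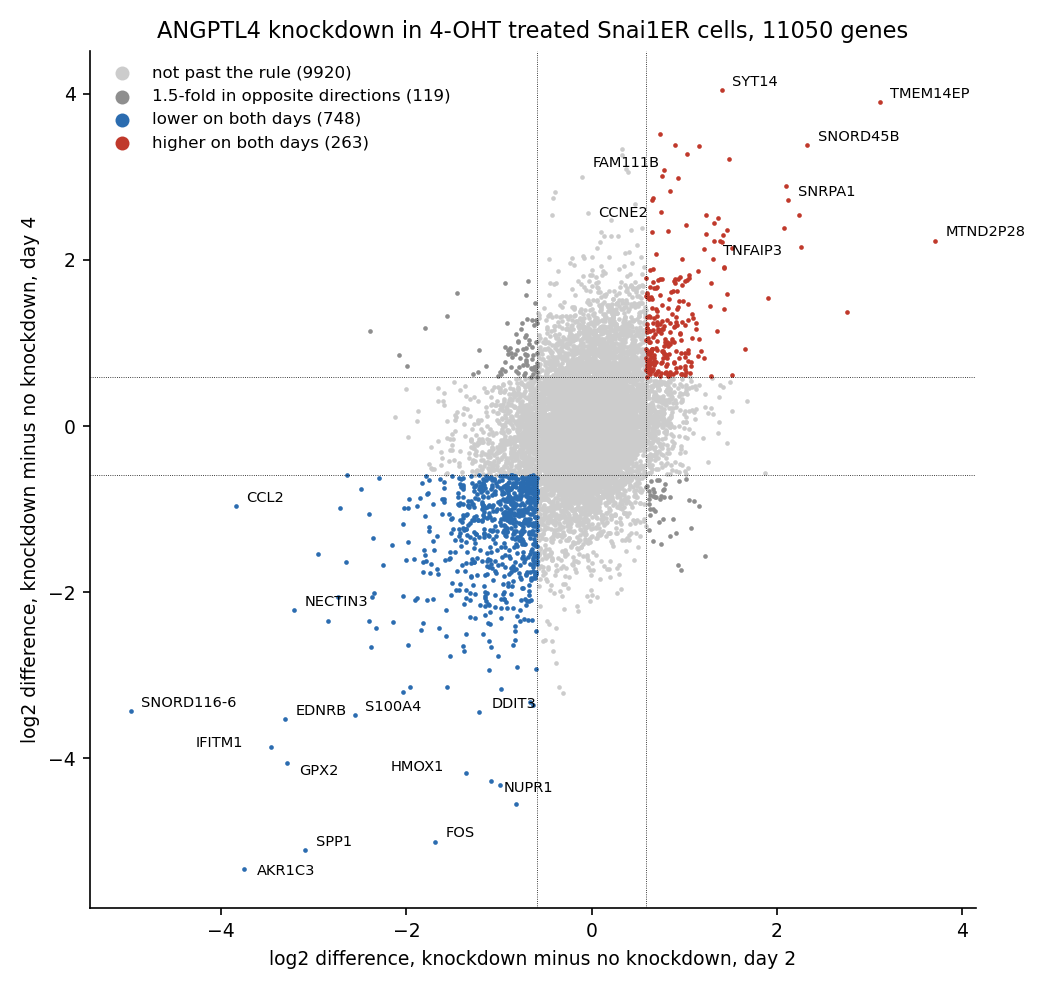
Log2 difference between the array with and the array without ANGPTL4 knockdown on day 2 (x axis) and day 4 (y axis), 1 point per gene. Dotted lines mark 1.5-fold. The 748 genes lower on both days reach farther from 0 than the 263 higher ones, and AKR1C3, SPP1 and SNORD116-6 lie farthest out.

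A test was possible only by borrowing the spread of the other pairs. In limma, fitted to the 12 treated arrays as 6 pairs with 1 knockdown effect per treatment, the mean of the 2 day differences passed a Benjamini-Hochberg adjusted p of 0.05 for 88 lower genes (0.796%) and 18 higher genes (0.163%). At an unadjusted p under 0.05 there were 2006 genes (18.2%). All 106 called genes also passed the size rule. The fit has 3 residual degrees of freedom, and nothing in the labels says that the arrays came from separate cultures, so these p-values measure only how much pairs of 1 treatment differed between days, which may be technical. The count rests on single pairs. It fell to 0 in either direction without the 4-OHT day 4 pair, and to 18 lower and 6 higher without either TGFβ1 pair. Without the 4-OHT day 2 pair it was 30 lower and 26 higher, of which only 19 were among the 106. Without either hypoxia pair it was 184 and 42. Below, "fell" and "rose" are kept for the 106 genes, with their adjusted p, and "lower" and "higher" for the size rule.

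AKR1C3, an aldo-keto reductase that reduces steroids and prostaglandins, fell most. It read 9.91 and 11.47 without knockdown on days 2 and 4, and 6.16 and 6.14 with it, 13.5-fold and 40.2-fold lower. Both knockdown arrays were also below the untreated level of 9.02. The limma estimate was -4.54 ± 0.47 (SE, adjusted p = 0.0122). GPX2, a glutathione peroxidase of the gastrointestinal epithelium, went from 10.51 and 10.80 to 7.22 and 6.75, against 10.43 in untreated cells, an estimate of -3.67 ± 0.38 (adjusted p = 0.0122). Without knockdown GPX2 stayed close to its untreated level, whereas AKR1C3 was higher on both 4-OHT arrays than on the untreated one. SPP1, the gene of the secreted matrix protein osteopontin, read 8.81 and 10.40 without and 5.72 and 5.30 with knockdown (-4.10 ± 0.54, adjusted p = 0.0329). S100A4, a calcium-binding protein known as a marker of EMT and metastasis, read 9.51 and 9.99 without and 6.95 and 6.52 with it (-3.02 ± 0.29, adjusted p = 0.0122). In these 4 genes, chosen by size on the same arrays, both knockdown arrays lay below all 3 Snai1ER arrays without knockdown. Both knockdown arrays lay below the untreated array, a looser order, for 87.6% of the 748 lower genes. Of all genes tested, 550 (4.98%) were 1.5-fold lower on both knockdown arrays than on both 4-OHT partners. The share of all genes below all 3 arrays was not computed. Both knockdown arrays of SPP1 read under 5.90, a low level on this array, so the size of its fall is uncertain.

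Further genes fell as well. EDNRB, an endothelin receptor, read 8.96 and 9.13 without and 5.65 and 5.60 with knockdown, and 7.98 in untreated cells (-3.42 ± 0.29, adjusted p = 0.0122). NECTIN3, an adhesion molecule of adherens junctions, read 9.09 and 8.84 without and 5.87 and 6.63 with it (-2.71 ± 0.29, adjusted p = 0.0122). For MME, a membrane metallopeptidase that cuts signalling peptides, the levels were 7.79 and 8.22 without and 4.94 and 5.88 with knockdown (-2.60 ± 0.43, adjusted p = 0.0436). SLC1A3, a glutamate and aspartate transporter, went from 9.08 and 9.01 to 6.34 and 6.96 (-2.39 ± 0.25, adjusted p = 0.0122), and SSBP2, which encodes a single-stranded DNA-binding cofactor of LIM-domain factors, from 7.46 and 8.20 to 5.08 and 5.55 (-2.52 ± 0.25, adjusted p = 0.0122). Neither day overlapped between the groups in any of these 5 genes, which were chosen by their differences on these same arrays. Of all genes tested, 550 (4.98%) were lower with both days apart by 1.5-fold. Both knockdown arrays of EDNRB, MME and SSBP2 also read under 5.90. CST1, a secreted cysteine protease inhibitor, was lower by the size rule (-2.04 and -3.20) without passing the test (adjusted p = 0.0713).

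In other genes among the largest differences, the day 4 array without knockdown stood high above the other 4 Snai1ER arrays. FOS, an immediate early gene of the AP-1 factor, read 5.99 in untreated cells, 7.85 and 10.58 on 4-OHT, and 6.16 and 5.58 with knockdown (-3.34 ± 0.70, adjusted p = 0.0707). HMOX1, the haem oxygenase induced by oxidative stress, read 8.78 untreated, 9.37 and 11.99 on 4-OHT and 8.01 and 7.82 with knockdown (adjusted p = 0.0843). NUPR1, a stress-induced chromatin protein, and RNU11, the U11 RNA of the minor spliceosome, followed the same order, with differences of -1.08 and -4.28 and of -0.99 and -4.32. AKR1C2, another steroid-reducing member of the AKR1C family, differed by -0.82 and -4.54. None of these 5 passed the limma test, and in each the knockdown arrays lay closer to the untreated array than the day 4 array without knockdown did. The AKR1C genes are near-identical copies whose probes may not tell them apart. The 2 probe sets of AKR1C1 differed by -0.20 and -2.09 on day 2 and by -0.06 and -4.49 on day 4.

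**Figure D2:**
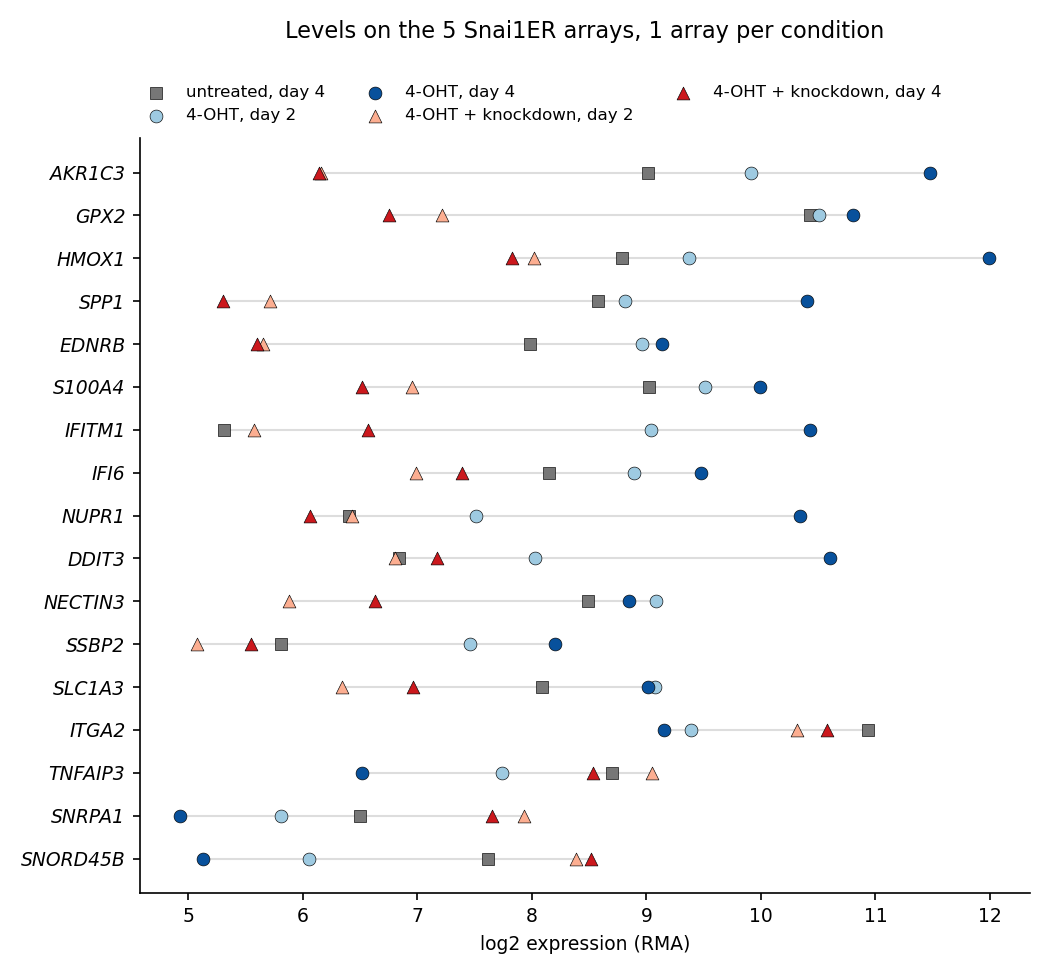
Log2 expression of 17 genes on the 5 Snai1ER arrays (x axis), 1 symbol per array and no error bars because each condition has 1 array. Triangles are the knockdown arrays and circles their partners without knockdown. In AKR1C3 both triangles lie near 6.15 against 9.91 and 11.47, while in NUPR1 and DDIT3 the day 4 circle stands apart on the right.

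Among higher genes, small nucleolar RNAs stood out in number. Of 74 snoRNA genes tested, which guide chemical modification of ribosomal and spliceosomal RNA, 18 (24.3%) were higher on both days and 9 (12.2%) lower, against 2.06% and 6.78% of the 10544 protein-coding genes. Their median differences were 0.50 and 0.39. SNORD45B read 6.05 and 5.13 without and 8.38 and 8.51 with knockdown (2.86 ± 0.39, adjusted p = 0.0356). SNORD28 (2.23 ± 0.26, adjusted p = 0.0209) and SNORD30 (2.21 ± 0.33, adjusted p = 0.0405), both encoded in introns of the snoRNA host gene SNHG1, rose too. SNORD44 differed by 2.75 and 1.37 without passing the test. In the other direction SNORD116-6, of an imprinted snoRNA cluster, fell from 9.42 and 7.50 to the low levels of 4.45 and 4.07 (-4.20 ± 0.69, adjusted p = 0.0436), and after quantile normalization it no longer passed. Most snoRNAs lie within introns of longer transcripts, and the array was not shown to separate the 2 sources.

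TMEM14EP, a pseudogene, rose from 5.31 and 4.80 to 8.42 and 8.70 (3.51 ± 0.32, adjusted p = 0.0122). MTND2P28, a nuclear copy of the mitochondrial gene for complex I subunit 2, read 8.31 and 9.44 without and 12.03 and 11.67 with knockdown (2.97 ± 0.39, adjusted p = 0.0311). The mitochondrial transcript is near-identical to it, so the value is uncertain. SNRPA1, a protein of the U2 spliceosome particle, went from 5.81 and 4.93 to 7.93 and 7.65 (2.42 ± 0.25, adjusted p = 0.0122). The long non-coding LINC02912 (2.39 ± 0.23, adjusted p = 0.0122) and GPR18, a G protein-coupled receptor (2.35 ± 0.38, adjusted p = 0.0417), rose as well. In all 5 genes, chosen by size on the same arrays, both knockdown arrays lay above all 3 Snai1ER arrays without knockdown. Both knockdown arrays lay above the untreated array, a looser order, for 85.6% of the 263 higher genes. Of all genes tested, 146 (1.32%) were 1.5-fold higher on both knockdown arrays than on both 4-OHT partners. The share of all genes above all 3 arrays was not computed. Both arrays without knockdown read under 5.90 for TMEM14EP, SNRPA1 and LINC02912, so the sizes of these rises are uncertain. SYT14, a synaptotagmin, was higher by 1.41 and 4.05 without passing the test (adjusted p = 0.0741). Of the other large rises by size, OR13H1, EVI2B, TAS2R14, OR5E1P and SLC10A5 read 4.39 to 4.89 on the day 4 array without knockdown, below the level required of a gene's mean.

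Genes induced by interferon were lower with knockdown. Interferons act through receptors at the cell surface and induce antiviral genes, many of which carry the interferon-stimulated response element (ISRE) in their promoters. Of 41 effector genes tested, 12 (29.3%) were lower on both days and 0 higher, against 6.77% and 2.38% of all genes, with medians of -0.57 on day 2 and -0.45 on day 4 against -0.02 and -0.04. IFITM1, a membrane protein that blocks viral entry, read 5.31 in untreated cells, 9.04 and 10.43 on 4-OHT, and 5.57 and 6.57 with knockdown (-3.66 ± 0.32, adjusted p = 0.0122). IFI6, an interferon-induced protein of the endoplasmic reticulum and mitochondria, read 8.15, then 8.89 and 9.47, and 6.99 and 7.39 with knockdown (-1.997 ± 0.31, adjusted p = 0.0405). These 2 were the only effectors to pass the test. IFITM1 stayed above its untreated level on both knockdown arrays and IFI6 went below it.

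The other 10 lower effectors were IFI44L, OAS1, XAF1, RSAD2, IFI27, IFI44, ISG15, LAMP3, SP110 and UBE2L6. IFI44L read 4.22 untreated, 6.87 and 8.21 on 4-OHT and 4.73 and 5.85 with knockdown (adjusted p = 0.246). OAS1, the oligoadenylate synthetase that activates RNase L, read 8.48 and 9.20 without and 6.11 and 7.15 with it (adjusted p = 0.0707). RSAD2, the antiviral radical SAM enzyme viperin, differed by -2.49 on day 2 and -0.75 on day 4, and XAF1, an antagonist of apoptosis inhibitors, by -1.26 and -2.02. Under the rule that both knockdown arrays lie beyond both partners, 8 of the 12 remained, beside 550 of all 748 lower genes. Of the sensors and signalling genes, 3 of 20 were lower (15%, against 6.77% of all genes). These were the cytosolic DNA sensor CGAS (-1.22 and -0.76) and the regulators IRF1 (-0.75 and -0.68) and IRF2 (-0.72 and -0.76). IRF9 differed by -0.39 and -1.67. IFIH1, an RNA sensor (-1.38 and 0.22), and SAMD9, an interferon-induced antiviral factor (-1.87 and 0.19), were low on the day 2 knockdown array only.

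Genes of peptide processing for MHC class I were lower too. Of 11 genes tested, 5 (45.5%) were lower on both days and 0 higher, against 6.77% and 2.38% of all genes. None passed the limma test, and 5 had an unadjusted p under 0.05, against 18.2% of all genes. The 5 lower genes were the immunoproteasome subunits PSMB9 (-0.94 and -0.96) and PSMB10 (-0.81 and -1.15), the proteasome activator subunits PSME1 (-0.84 and -0.98) and PSME2 (-0.83 and -1.64), and the chaperone CALR (-0.60 and -1.75). All 5 also met the stricter rule across days, as did 550 of all 748 lower genes. PSMB6 and PSMA3, proteasome subunits outside this list, met it as lower too. The share of all proteasome subunits was not computed, so the difference is not shown to be particular to MHC class I. B2M, the light chain of MHC class I, differed by -0.42 and -0.63. PSMB9 is represented by 3 probe sets that carry the same values.

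The ISRE, searched as a pair of GAAA repeats separated by 2 bases on either strand in the 250 bases before each RefSeq start site (GRCh38.p14, the first listed start of a gene), was in 2.28% of the 8908 promoters of genes tested and in 58.3% of those of the 36 interferon effectors with a promoter in the table. It was in 6 of the 11 promoters of effectors lower on both days (54.5%), a share near that of the whole list, and in 3.26% of all promoters of lower genes. Of the MHC class I list it was in 6 of 11. The promoter stretches of 5 lower genes of the 2 lists are given 5′ to 3′ along the gene's strand with the match in capitals. All of these matches lie on the gene's own strand. A match is a description of letters and not a mapped binding site.
IFITM1 (chr11:313975-314034, + strand): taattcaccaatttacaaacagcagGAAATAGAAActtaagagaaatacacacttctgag
IFI6 (chr1:27672251-27672373, - strand): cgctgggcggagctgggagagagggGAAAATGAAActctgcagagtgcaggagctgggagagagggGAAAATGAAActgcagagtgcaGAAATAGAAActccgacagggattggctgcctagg
IFI44L (chr1:78620259-78620409, + strand): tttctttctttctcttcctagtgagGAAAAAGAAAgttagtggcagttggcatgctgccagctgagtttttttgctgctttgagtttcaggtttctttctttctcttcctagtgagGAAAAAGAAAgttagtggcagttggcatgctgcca
PSME2 (chr14:24146611-24146663, - strand): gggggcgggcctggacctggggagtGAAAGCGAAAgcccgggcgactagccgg
PSMB10 (chr16:67936851-67936896, - strand): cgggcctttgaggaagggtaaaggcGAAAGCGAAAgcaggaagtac
IFI6 held 3 matches and IFI44L 2 identical ones, while IFITM1, the interferon gene with the largest difference, held 1, whose first base lies 40 bases before the start site.

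Stress response genes separated the 2 days. The integrated stress response slows translation through eIF2α and induces ATF4 targets for amino acid supply and, when prolonged, cell death. Its 45 tested genes had a median difference of 0.30 on day 2 and -0.59 on day 4. By the size rule 8 were lower (17.8%), 2 higher (4.44%) and 5 in opposite directions, against 6.77%, 2.38% and 1.08% of all genes. DDIT3, the pro-apoptotic factor CHOP, read 6.84 untreated, 8.03 and 10.61 on 4-OHT and 6.81 and 7.17 with knockdown (-2.33 ± 0.46, adjusted p = 0.0633). GDF15, a secreted stress cytokine (-1.18 and -2.51), ATF3, a transcription factor of the same response (-0.85 and -2.19), and KLHL24 (-1.59 and -1.62) were lower on both days, as were NUPR1, CTH, DDIT4 and VEGFA. PPP1R15A, the phosphatase subunit that ends the response, differed by -0.35 on day 2 and -3.14 on day 4. SLC7A11 and SLC7A5, amino acid carriers of the cell surface, were higher on both days, SLC7A5 by 1.21 and 0.82. The 5 genes that turned were TRIB3, EIF4EBP1, PHGDH, SLC1A5 and SLC3A2. None of the 45 passed the limma test, and 10 had an unadjusted p under 0.05, a share near the 18.2% of all genes.

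The unfolded protein response, which raises chaperones and degradation factors of the endoplasmic reticulum, showed its difference on day 4. Its 36 genes had medians of -0.05 on day 2 and -0.76 on day 4, 22 being at least 1.5-fold lower on day 4 and 4 on day 2, against 18.6% and 14.2% of all genes. On both days 4 were lower (11.1%, against 6.77% of all genes). These were DNAJB9 (-0.65 and -2.33), MANF (-0.68 and -2.11), CALR and SELENOK, and EDEM1 was higher. HERPUD1, which serves degradation of misfolded proteins, read 10.12 and 12.03 without and 9.73 and 9.60 with knockdown, and the translocon subunit SEC61B 10.12 and 10.996 against 9.63 and 8.65. On HERPUD1 the day 4 array without knockdown was the high one, and on SEC61B the day 4 knockdown array was low too. Against untreated cells the list's median was 0.05 and 0.72 without knockdown on days 2 and 4, and 0.05 and 0.04 with it. On day 4 the array without knockdown was the one away from the untreated level. The endoplasmic reticulum stress element, CCAAT and CCACG separated by 9 bases, was in 0.146% of promoters of genes tested and in 6 of 33 of this list (18.2%), among them CALR and CRELD2, in both on the other strand.
CALR (chr19:12938359-12938427, + strand): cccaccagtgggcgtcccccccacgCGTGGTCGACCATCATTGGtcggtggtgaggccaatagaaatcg
CRELD2 (chr22:49918529-49918597, + strand): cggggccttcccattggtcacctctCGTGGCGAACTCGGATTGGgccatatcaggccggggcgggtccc
CRELD2, a secreted factor of this response, differed by -0.34 and -1.99.

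Of 19 heat shock genes, 9 were at least 1.5-fold lower on day 4, against 18.6% of all genes, and 3 on both days (15.8%, against 6.77%): DNAJB4 (-1.42 and -1.91), HSPB8 (-0.65 and -0.74) and HSPE1. HSPE1, the mitochondrial co-chaperonin, fell, from 11.39 and 11.46 to 9.72 and 10.13 (-1.50 ± 0.22, adjusted p = 0.0405). HSPA6, an inducible HSP70, read 5.53 untreated, 6.12 and 8.56 on 4-OHT and 5.74 and 5.71 with knockdown, so that 1 array of the 5 was high.

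**Figure D3:**
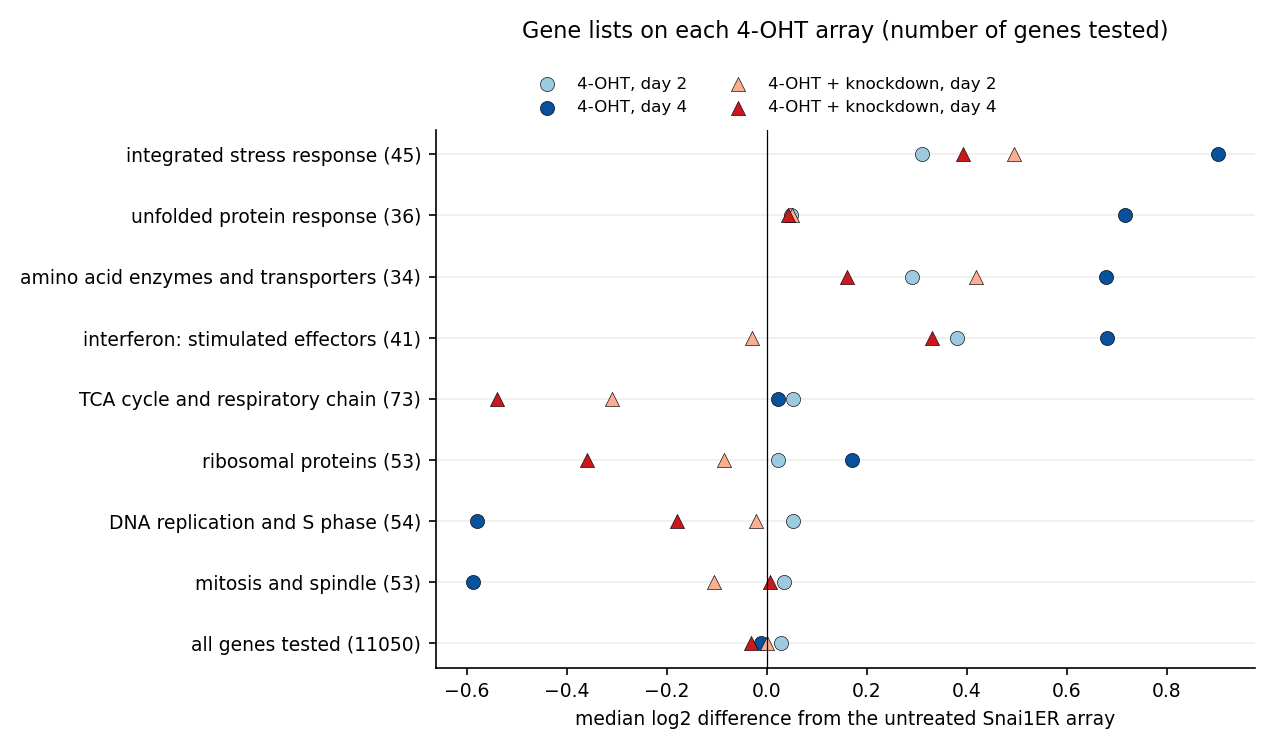
Median log2 difference of each gene list from the untreated Snai1ER array (x axis), 1 symbol per 4-OHT array, with the number of genes tested in brackets. The day 4 array without knockdown (dark circle) lies at 0.90 for the integrated stress response and at -0.58 and -0.59 for the replication and mitosis lists, while both knockdown arrays (triangles) have their lowest value, of the lists drawn, for the TCA cycle and respiratory chain.

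NRF2, the factor that induces antioxidant and detoxifying enzymes, has AKR1C3, GPX2 and HMOX1 among its textbook targets. Of 34 genes of that list, 5 were lower on both days (14.7%, against 6.77% of all genes). These were the 3 named and AKR1C1 and AKR1C2, and SLC7A11 was higher. The 3 AKR1C genes may count 1 signal more than once, since their probes may not tell them apart. Of the 2 probe sets of AKR1C1, 1 hardly differed (-0.20 and -0.06). AKR1C3 and GPX2 passed the test. The medians were -0.08 on day 2 and -0.60 on day 4. TKT, transketolase of the pentose phosphate pathway, differed by -0.57 and -1.92. The antioxidant response element, TGAC and GC separated by 3 bases, was in 12.3% of promoters of genes tested and in 11.7% of lower genes, and in 5 of 27 of this list. In GPX2 it lies on the other strand of the stretch shown.
GPX2 (chr14:64942834-64942892, - strand): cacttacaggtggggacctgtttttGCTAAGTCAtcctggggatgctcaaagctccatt
Among metallothioneins, the zinc-binding stress proteins, MT1F fell, from 8.16 and 8.79 to 7.002 and 6.996 (-1.47 ± 0.25, adjusted p = 0.0459), and no longer passed after quantile normalization. MT1X differed by -0.55 and -1.11 and MT2A by 0.05 and -0.75. No other of the 12 genes of that list passed either rule.

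The lower genes of energy metabolism were chiefly mitochondrial. Of 73 genes of the TCA cycle and respiratory chain, 18 were lower on both days (24.7%) and 0 higher, against 6.77% and 2.38% of all genes. The medians were -0.42 and -0.55, and 55 of 73 were negative on both days against 3574 of all 11050 genes. None passed the adjusted limma test, while 28 had an unadjusted p under 0.05, against 18.2% of all genes. NDUFA2, a subunit of complex I, read 9.70 and 9.41 without and 8.04 and 7.62 with knockdown (-1.72 ± 0.36, adjusted p = 0.0702). UQCRH of complex III read 9.51 and 10.42 against 8.60 and 8.23 (adjusted p = 0.0678), and NDUFS8 of complex I 9.31 and 9.68 against 8.54 and 7.84 (adjusted p = 0.0775). In all 3 both knockdown arrays lay below the untreated array too, as they did for 87.6% of the 748 lower genes. Subunits of complex IV were lower as well, COX8A (-0.75 and -1.95), COX5B (-0.62 and -1.79) and COX7A2 (-1.39 and -0.94) among them. Of the 18, 17 also met the stricter rule across days, beside 550 of all 748 lower genes. Against untreated cells, the list's median was 0.05 and 0.02 without knockdown and -0.31 and -0.54 with it. Here the knockdown arrays were the ones away from the untreated level.

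Ribosomal protein genes, likewise short and abundant transcripts, moved beside these on day 4. Of 53, 26 were at least 1.5-fold lower on day 4 and 4 on day 2, against 18.6% and 14.2% of all genes, the medians being -0.10 and -0.54. On both days 4 were lower (7.55%, near the 6.77% of all genes). These were RPS14 (-0.65 and -2.09), RPS28 (-0.68 and -1.98), RPS29 (-1.10 and -1.45) and RPL35 (-0.71 and -1.80). The medians of the respiratory chain list were -0.42 on day 2 and -0.55 on day 4. Genes outside both lists, MRPL33, MRPS21, POLR2L and PFDN5 among them, also met the stricter rule across days as lower. The part of any shift shared by short transcripts in these differences was not tested.

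Other metabolic lists held fewer calls. Fatty acid oxidation had 2 of 21 lower (9.52%, against 6.77% of all genes). These were HADH (-0.91 and -1.27), which oxidises hydroxyacyl-CoA, and the electron transfer subunit ETFB (-0.67 and -1.18). Glycolysis and glucose uptake had 2 of 29 lower, the glycogen phosphorylase PYGL (-0.85 and -0.68) and the pyruvate dehydrogenase kinase PDK2 (-0.77 and -0.88), a share of 6.9% that is near that of all genes. Its medians were 0.15 on day 2 and -0.40 on day 4. In fatty acid synthesis and storage, 1 of 24 was lower, the desaturase FADS1 (-0.78 and -0.77), and in cholesterol synthesis 1 of 21, the farnesyl diphosphate synthase FDPS (-0.95 and -0.72). Of 34 amino acid enzymes and transporters, 4 were lower (11.8%) and 2 higher (5.88%), against 6.77% and 2.38% of all genes. ARG2, the mitochondrial arginase, read 8.83 and 10.47 without and 7.72 and 7.89 with knockdown (-1.85 ± 0.34, adjusted p = 0.0539). GLUL, glutamine synthetase, read 7.99 and 8.32 against 7.10 and 6.83. CTH, which makes cysteine, and FAH of tyrosine breakdown were the other 2 lower ones. As in the integrated stress response list, with which it shares members, the medians were 0.30 on day 2 and -0.56 on day 4.

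By the size rule on both days, 6.77% of all genes were lower and 2.38% higher. Autophagy and mitophagy genes were lower in 7 of 45 (15.6%) and higher in 1 (2.22%). The 7 were ATG12 (-0.59 and -1.62) and ATG14, which act in forming the autophagosome, WIPI1 (-0.84 and -1.28), GABARAPL2 (-0.68 and -1.19), the cargo receptor NBR1, and the mitophagy receptors BNIP3L (-1.01 and -0.91) and FUNDC1 (-0.77 and -1.17). EPG5 was the higher one, and none passed the test. Of HIF targets outside glycolysis, the genes of the hypoxia response, 7 of 22 were lower (31.8%) and 0 higher, by the same rule. TMEM45A, a membrane protein induced by hypoxia, fell, from 7.97 and 7.72 to 6.43 and 6.12 (-1.57 ± 0.23, adjusted p = 0.0405). VEGFA, the angiogenic growth factor (-0.66 and -1.51), EPAS1, which encodes HIF2α (-0.68 and -1.58), ANKRD37 (-0.90 and -1.88), FAM162A (-0.72 and -1.60), LOXL2 and EGLN3 were lower by the size rule. All of these cells were grown without the hypoxia treatment.

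The ATP-binding cassette (ABC) transporters, which pump drugs and lipids and were a question of the study, were not lower by the rule. Of 18 tested, ABCC4 was higher on both days (1.05 and 0.92, adjusted p = 0.118) and 0 were lower. Of all genes 2.38% were higher and 6.77% lower. ABCC1 read 7.71 and 7.53 without and 8.65 and 7.89 with knockdown, 0.65 ± 0.32 (adjusted p = 0.342). ABCB1 (4.70, 4.73, 4.55 and 4.37) and ABCG2 (5.16, 5.08, 4.98 and 5.11) were below the filter on all 4 arrays and were not tested. ABCB10 and ABCE1 differed by 0.51 and 1.33 and by 0.55 and 0.93. Of the regulators that the study followed, MYC read 9.73 and 9.87 without and 10.75 and 9.98 with knockdown (adjusted p = 0.345), NFKB1 8.66 and 7.85 against 8.99 and 8.82 (adjusted p = 0.434) and RELA 8.37 and 8.27 against 8.53 and 8.19 (adjusted p = 0.954). MYC was high on the day 2 knockdown array and NFKB1 low on the day 4 array without knockdown.

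EMT regulators and epithelial genes held few calls. None of 15 EMT transcription factors, epithelial and mesenchymal, passed either rule, the medians being 0.03 and -0.14. ESRP2, a splicing regulator of epithelial cells, differed by 1.30 and 0.57, just short of the rule on day 4, and the epithelial factor GRHL2 by 0.13 and 0.97. Of 38 junction and keratin genes, CLDN1 was lower (-0.99 and -0.75) and 0 were higher. KRT18 read 11.44 and 11.48 without and 11.63 and 10.89 with knockdown, and KRT19 10.85 and 10.92 against 10.54 and 9.23, the day 4 knockdown array being the lowest for both keratins. Desmosome genes went the other way on that day, DSP by 0.50 and 1.11 and DSG2 by 0.12 and 1.26.

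Mesenchymal and contractile genes were lower in 5 of 18 (27.8%) and higher in 0, against 6.77% and 2.38% of all genes. S100A4 fell, as given above. The other 4 were LOXL2, a matrix lysyl oxidase (7.40 and 7.69 without, 6.55 and 6.001 with knockdown, adjusted p = 0.0633), smooth muscle actin ACTA2 (-0.87 and -0.59), the actin regulator CALD1 (-0.61 and -0.71) and the membrane-bound protease MMP14 (-0.65 and -0.60). All 5 met the stricter rule across days, as did 550 of all 748 lower genes. VIM, vimentin, differed by -0.42 and -1.61. With medians of -0.07 and -0.30 the list as a whole lay near all genes on day 2.

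Laminin, matrix and integrin genes included 3 of 21 higher (14.3%) and 0 lower, against 2.38% and 6.77% of all genes. ITGA2, the collagen-binding integrin subunit, read 10.93 in untreated cells, 9.39 and 9.15 on 4-OHT, and 10.32 and 10.58 with knockdown (1.18 ± 0.26, adjusted p = 0.08). Both knockdown arrays lay between the untreated and the 4-OHT levels. ITGAV, the subunit of vitronectin receptors (0.62 and 0.73), and the crosslinking enzyme TGM2 (0.89 and 1.19) were the other 2. LAMB3, a laminin chain of the epithelial basement membrane, was high on the day 2 knockdown array (1.11 and 0.09).

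In TGFβ, SMAD and YAP signalling, 3 of 29 genes were lower (10.3%) and 1 higher (3.45%), shares near the 6.77% and 2.38% of all genes. LTBP1, which holds latent TGFβ in the matrix, fell, from 8.79 and 9.20 to 7.37 and 7.82 (-1.39 ± 0.23, adjusted p = 0.0436). ANKRD1, a YAP target, read 10.90 and 10.99 against 9.89 and 9.32 (adjusted p = 0.0566), and BAMBI, a decoy receptor of the pathway, 9.74 and 9.23 against 8.22 and 8.11. The receptor TGFBR2 was higher by 0.80 and 1.004. Among EGF receptor ligands and targets, the ligand TGFA was higher (0.63 and 0.86) and the ERK-induced factor ETV5 lower (-0.64 and -0.98), 1 each of 18. In the NF-κB list, 1 of 29 was lower and 2 higher. CCL2, a chemokine for monocytes, read 10.73 untreated, 11.14 and 7.49 on 4-OHT, and 7.29 and 6.52 with knockdown, so that the day 4 array without knockdown was itself low. TNFAIP3, the feedback inhibitor A20, read 8.70, then 7.74 and 6.52, and 9.05 and 8.53 with knockdown (adjusted p = 0.183), and the chemokine CXCL16 was higher by 0.76 and 1.26. Both knockdown arrays of TNFAIP3 lay within 0.35 of the untreated level.

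Cell cycle genes differed on day 4. Of 54 DNA replication genes, 25 were at least 1.5-fold higher on day 4 and 2 on day 2, against 15.5% and 6.2% of all genes, with medians of -0.01 and 0.47. Of 53 mitosis genes, 22 were higher on day 4 and 0 on day 2, with medians of -0.17 and 0.51, and 10 were lower on day 2, against 14.2% of all genes. CCNE2, the cyclin that drives entry into S phase, read 8.59 untreated, 8.61 and 7.21 on 4-OHT and 8.57 and 9.77 with knockdown. MKI67, the proliferation marker Ki-67, read 11.14, 10.99, 9.22, 11.35 and 11.30 in the same order, and the repressor E2F8 9.13, 9.15, 7.31, 9.24 and 9.52. In all 3 the day 4 array without knockdown was the low one, and the lists' medians against untreated cells there were -0.58 and -0.59, against -0.18 and 0.01 on the day 4 knockdown array. Few members passed the rule of both days: POLE, the leading-strand polymerase, was higher (1.01 and 1.22, adjusted p = 0.0553), and GINS4 (-1.19 and -0.79), RPA2, PTTG1, which encodes securin (-1.71 and -0.94), and the phosphatase CDC25C (-1.16 and -0.98) were lower. TK1, thymidine kinase, went against its list on day 4 (-1.79). Of 27 CDK inhibitor and p53 target genes only CCNG2 was called, as lower (-1.79 and -0.60), and of 38 MYC and ribosome biogenesis genes UTP20 (0.95 and 1.80) and POLR1A (0.75 and 1.12), both of ribosomal RNA production, were higher.

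The differences of the 2 days had a Pearson r of 0.43 and a Spearman rho of 0.34 across genes, with an SD of 0.51 on day 2 and 0.72 on day 4. Of the 748 lower genes 487 differed more on day 4, and of the 263 higher genes 210. Of the genes whose difference grew most, KRT16, a keratin of stressed epithelium, went from -0.31 to -3.21, and FAM111B, a protease of replicating cells, from -0.11 to 2.996. MACC1, a regulator of MET, read 10.44 untreated, 8.46 and 6.56 on 4-OHT and 8.04 and 9.30 with knockdown. On these 3 genes too the array without knockdown moved most between days. IGFL4 went the other way, with a difference of -2.64 on day 2 and -0.59 on day 4, and CETN3, a centriole protein, of -1.99 and -0.13.

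Against untreated Snai1ER cells, both knockdown arrays read lower than the untreated array for 655 of the 748 lower genes (87.6%), by at least 1.5-fold for 319 (42.6%), and both lay within 1.5-fold of it for 176 (23.5%). Both arrays without knockdown lay above the untreated array for 527 (70.5%), by at least 1.5-fold for 126 (16.8%). Of the 263 higher genes, both knockdown arrays were above the untreated array for 225 (85.6%), by at least 1.5-fold for 88 (33.5%), and both arrays without knockdown below it for 184 (70.0%). These counts share the arrays that chose the genes and are a description. The untreated array is of day 4 only, so the day 2 arrays differ from it in time too.

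In the parental line, knockdown gave fewer calls by the same rule of size, there applied to days 1 and 2. The Snai1ER set has days 2 and 4, and the part of these unlike times in the counts was not tested. After quantile normalization, which brings 2 TGFβ1 arrays with lower values onto the scale of the rest, there were 418 lower genes (3.78%) and 74 higher genes (0.67%) under hypoxia, and 497 (4.5%) and 150 (1.36%) under TGFβ1, against 825 and 241 in Snai1ER cells on the same scale. Of these 825 lower genes, 86 were among the 418 (10.4% of the first list and 20.6% of the second) and 155 among the 497 (18.8% and 31.2%). Of the 241 higher ones, 9 were among the 74 (3.73% and 12.2%) and 27 among the 150 (11.2% and 18%). A direct limma test of the Snai1ER effect minus the mean of the 2 parental effects called 0 genes below and 0 above 0, with 1228 genes (11.1%) at an unadjusted p under 0.05 and a lowest adjusted p of 0.0845. It thus showed no gene to be particular to Snai1ER cells, and line, treatment and time cannot be told apart in it. On the values as deposited it called 4, SSBP2, SNORD13, EDNRB and SLC1A3, all lower.

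The quantile-normalized differences of these genes are given as values. SSBP2 differed by 1.62 and 0.70 under hypoxia, 0.06 and -0.42 under TGFβ1, and -2.40 and -2.86 on 4-OHT. SLC1A3 had 0.17, 0.05, 0.58 and 0.03 in the 4 parental pairs and -2.80 and -2.15 on 4-OHT, and NECTIN3 0.20, 0.15, 0.27 and -0.31 against -3.26 and -2.36. For these 3 the 2 Snai1ER pairs lay below all parental ones. They were chosen by their differences on the same arrays, and the share of all genes with this order was not computed. EDNRB was lower under hypoxia too (-2.09 and -1.02) but not under TGFβ1 (0.12 and 0.83), and IFITM1 likewise (-2.15 and -3.42, then 0.53 and -0.10). TMEM45A lay between -1.78 and -1.23 in all 6 pairs, and ANKRD1 between -2.06 and -1.0005. SNORD116-6 was lower in all 6 as well, with -1.38 in the pair nearest 0.

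**Figure D4:**
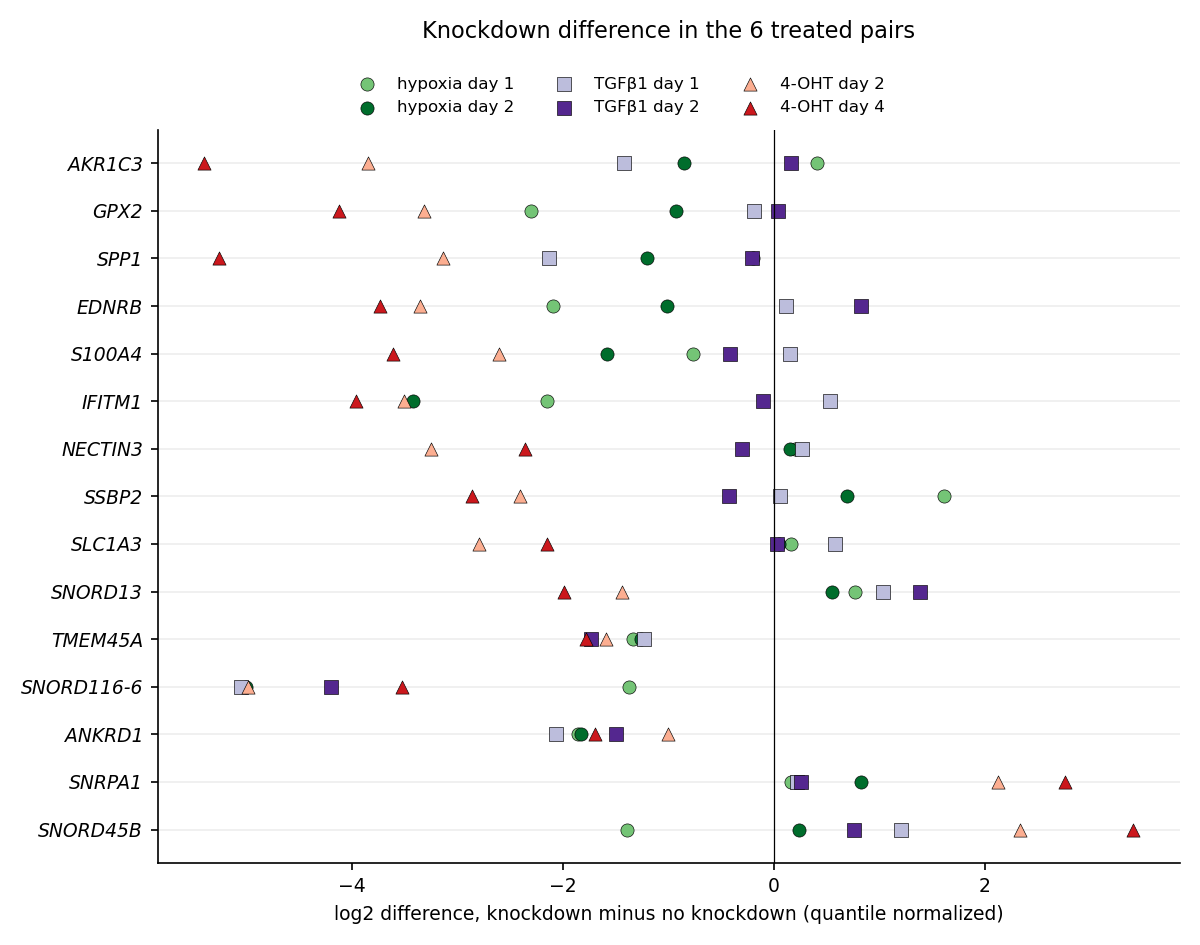
Log2 difference with against without ANGPTL4 knockdown after quantile normalization (x axis) for 15 genes, 1 symbol per pair of arrays. Triangles (4-OHT) lie left of every parental symbol for NECTIN3, SSBP2, SLC1A3 and SNORD13, and overlap them for TMEM45A, SNORD116-6 and ANKRD1.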

How the data were processed

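RNA of gastric carcinoma cells was hybridised to GeneChip Human Gene 1.0 ST arrays, 1 per condition. The authors deposited log2 values after RMA normalization in Partek (version not given in the sources used here). Of 33297 probe sets, 19460 carried 1 gene symbol, 1754 several and 12083 were not listed in the annotation given. Names were updated through gene identifiers, and probe sets of 1 gene were averaged, giving 18417 genes. The 11050 genes at or above the 40th percentile of the mean over 14 arrays (5.90) were tested. Differences on each day were computed, and limma 3.58.1 (R 4.3.3) fitted 6 pairs as blocks, with Benjamini-Hochberg adjustment over all genes tested. On simulated data with independent noise, limma recovered 1 of 67 changes of 1.5-fold (1.49%), 19 of 67 of 2-fold (28.4%) and 64 of 66 of 4-fold (97%). It made 10 false calls beside these, and 1.27% of unchanged genes passed the 1.5-fold rule of both days. Noise shared between arrays or genes was not simulated. Arrays carry no replicate number; pairs came from day and treatment. Their number limits the precision. Promoters (27305) are from RefSeq, GRCh38.p14, and 170 of 221 named genes matched. The antioxidant element was added after values were seen.

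Genes named were the 15 largest falls and rises by size, up to 6 per list with the largest mean difference, those whose difference grew or shrank most, the strongest interactions, and genes named in the paper. Called list members, the genes nearest the 1.5-fold limit and markers were named besides, after their values were seen. Members and gene lists were chosen with earlier results of these data known.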

Additional observations from a re-analysis of the deposited data

Results flagged for a closer look

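Only named genes past the size rule were searched, so their direction in Snai1ER cells was fixed beforehand. For 3 of them both Snai1ER pairs and all 4 parental pairs differed in opposite directions, as deposited and after quantile normalization. The share of all genes that do so was not computed, and the values below are quantile normalized. ETFB, a subunit of the electron transfer flavoprotein, had a mean difference of -0.942 with knockdown in Snai1ER cells and 0.256 in the parental line. Its parental pairs ran from 0.0035, which is no difference, to 0.47, and the limma interaction did not pass (adjusted p = 0.256). RPS29, a protein of the small ribosomal subunit, had -1.31 against 0.341, with parental pairs from 0.084 to 0.66 (limma interaction, adjusted p = 0.11). SNORD13, a small nucleolar RNA, had -1.71 against 0.935, with parental pairs from 0.55 to 1.39. Its limma interaction (adjusted p = 0.0845) passed only on the values as deposited.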

How the results depend on the processing

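Counts by size were 205 lower and 48 higher at 2-fold, 1569 and 685 on day 2 alone and 2051 and 1716 on day 4 alone, and 146 were higher when both knockdown arrays had to lie beyond both partners (chosen after seeing the data). In limma the 88 lower and 18 higher genes became 257 and 67 with the 4 Snai1ER arrays only, 184 and 42 without the hypoxia arrays, 18 and 6 without the TGFβ1 arrays, 46 and 11 with 1 knockdown effect per line, 233 and 66 without the pair block, 165 and 44 with a mean-variance trend, 21 and 9 with array weights, and 48 were higher with no filter. Leaving out 1 pair at a time gave 0 to 184 lower and 0 to 42 higher genes. Leaving out 1 hypoxia or TGFβ1 pair equals leaving out both, since the remaining pair has no residual. Against the parental line, 4 genes were lower on the values as deposited and 1 (OR51B4) was higher with no filter, where limma called 0. The median of the interferon effectors moved to -0.69 after centring and -0.46 with no filter, of MHC class I to -0.29 with no filter, of fatty acid oxidation to -0.31 after centring, of fatty acid synthesis to -0.21 and -0.18 after centring and quantile normalization, and of cholesterol synthesis to -0.32 and -0.29. The other 108 list medians recomputed moved by less than the gap between the list's 2 day medians divided by the square root of 2. This limit is no spread over genes, and it is wider for lists that differed between days. RELA turned to -0.0466 and ZNF716 to -0.0137 after centring. SNORD116-6 and MT1F no longer passed limma after quantile normalization, while RPS29 (centred and quantile) and, by its brightest probe set, GLUL did. The cause of these changes was not tested. Signal near background limits low genes, ANGPTL4 among them.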
